A study of Mus musculus with 6 samples.

Results

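The 47 genes described here encode the ligands, receptors, extracellular regulators and intracellular mediators of bone morphogenetic protein (BMP) and activin signaling, and they were followed in calvaria of *Tmem53* mutant mice, the membranous bones that roof the skull. They were chosen by name, as a list of known pathway components, with earlier results of these data known. Of the 47, 46 had an entry of their own among the 32350 entries of the deposited expression table, and 43 passed the filter on low values and were among the 13535 entries tested. *Bmp7*, *Gdf5* and *Chrdl2* averaged below 0.5 FPKM (the deposited unit, sequenced fragments scaled to exon length and to the mapped total), and *Bmpr2* was listed only in an entry merged with LOC100504533.

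The pups were of strain B6N and 3 days old, and each gave 1 RNA-seq library of whole calvaria. There were 3 heterozygous pups (*Tmem53*+/-), which served as controls, and 3 homozygous mutant pups (*Tmem53*-/-). The study describes the heterozygous pups as littermates of the mutants. The litter of each pup is not given in the labels, so the pups were compared as unpaired. TMEM53 is a protein of the nuclear envelope, and the comparison bears on whether transcripts of the BMP and activin pathway differ when it is lost. Transcript levels of these genes do not measure the signaling itself. By the study's methods the alleles were CRISPR/Cas9 frameshifts, predicted to give a truncated protein without its transmembrane domain. Every control carried 1 mutant allele, and no wild-type pup was sequenced in these libraries. The values are of bulk tissue, in which fewer cells of a type and less RNA per cell cannot be told apart.

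BMPs and growth and differentiation factors (GDFs) are secreted dimers of the TGF-β superfamily. They bring together type I and type II serine/threonine kinase receptors at the cell surface, and the type I receptor then phosphorylates receptor SMADs. SMAD1, SMAD5 and SMAD9 serve the BMP branch and SMAD2 and SMAD3 the activin and TGF-β branch. Both kinds join SMAD4 and enter the nucleus, where they act on target genes. Secreted antagonists such as noggin, chordin, follistatin and gremlin hold the ligands away from the receptors, and SMAD6, SMAD7 and the SMURF ubiquitin ligases dampen the signal inside the cell. In bone, BMP signaling is known for driving mesenchymal cells towards osteoblasts and chondrocytes, and noggin is known for keeping it in check in sutures and joints.

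In mutant calvaria the ligand *Bmp3*, the type I receptor *Bmpr1a*, the antagonist *Nog* and the activin-branch mediator *Smad3* rose, and the activin type I receptor *Acvr1b* and the extracellular modulator *Bmper* fell. These 6 of 43 tested genes passed a Benjamini-Hochberg adjusted p under 0.05 in limma, against 956 of 13535 entries (7.06%) over the whole table. Called higher were 4 of the 43, with a background of 3.44%, and called lower were 2, with a background of 3.63%. These shares differ by a few genes only, and nothing is read from them about the list. By an unadjusted p under 0.05 there were 16 of the 43, 10 higher and 6 lower, with a background of 27.9%. The libraries of the genotypes did not overlap for 19 of the 43, 14 higher and 5 lower in mutants, while the background was 37.2%, made up of 21.2% higher and 16.0% lower. The log2 fold change lay above 0 for 27 of the 43 and for 7702 of the 13535 entries tested, with medians of 0.11 and 0.05.

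**Figure D1:**
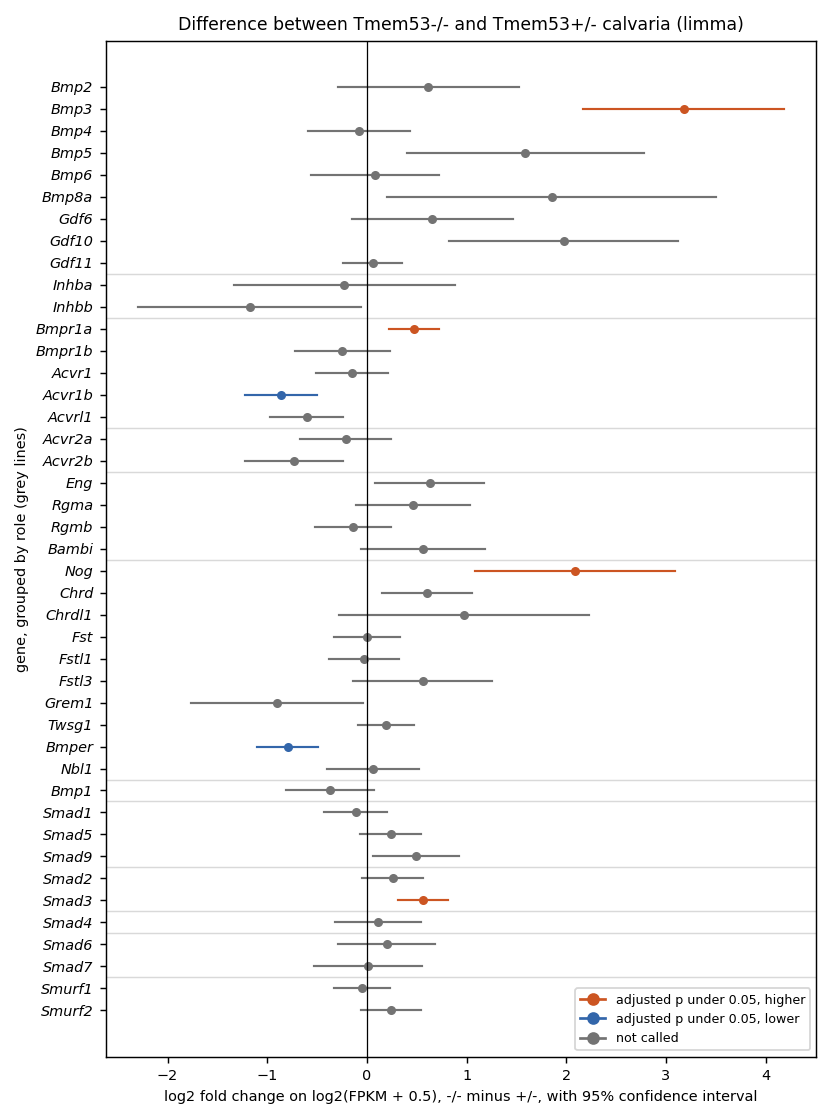
Log2 fold change of mutant over heterozygous calvaria on the log2(FPKM + 0.5) scale for the 43 tested genes, grouped by role. Points are limma estimates with 95% confidence intervals from 3 pups per genotype, and the coloured points are the 6 called genes, of which *Bmp3* at 3.18 lies farthest to the right and *Acvr1b* at -0.86 is the lower of the 2 called on the left.

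Some facts of the libraries bear on all of these values. *Tmem53* mRNA was at 7.22, 6.38 and 7.16 FPKM in heterozygous and 13.9, 10.9 and 10.0 FPKM in mutant replicates 1 to 3, which is no check of genotype for a frameshift allele. By *Xist* and *Ddx3y*, heterozygous replicates 1 and 3 were female and heterozygous replicate 2 and all 3 mutants were male. A fit with sex as a covariate therefore sets the mutants against heterozygous replicate 2 alone. Heterozygous replicate 2 and mutant replicate 3 stood apart from the other libraries of their genotype, with correlations across genes of at most 0.957 and 0.96, against 0.991 and 0.982 for the remaining pairs. Markers of cartilage cells, 11 of 14 tested called higher, summed to between 141 and 151 FPKM in heterozygous and to 6030, 3190 and 800 FPKM in mutant replicates 1 to 3. Markers of osteoclasts, the cells that resorb bone, summed to 3880, 685 and 2770 FPKM in heterozygous and to 204, 229 and 340 FPKM in mutant replicates, with 6 of 8 called lower. Of 12 tested entries for osteoblast markers 6 were called higher and 0 lower, with a median log2 fold change of 1.53, among them *Ibsp* (5.04), *Dmp1* (4.54) and *Bglap* (2.35). Their sums ran from 508 to 7670 FPKM but are distorted by *Col1a1*, *Col1a2* and *Spp1*, listed at 0 in some libraries, so an exact 0 in this table can be a failed estimate. The part of sex, of these cell types and of the libraries that stand apart in the results below was not tested beyond the values given beside them.

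**Figure D2:**
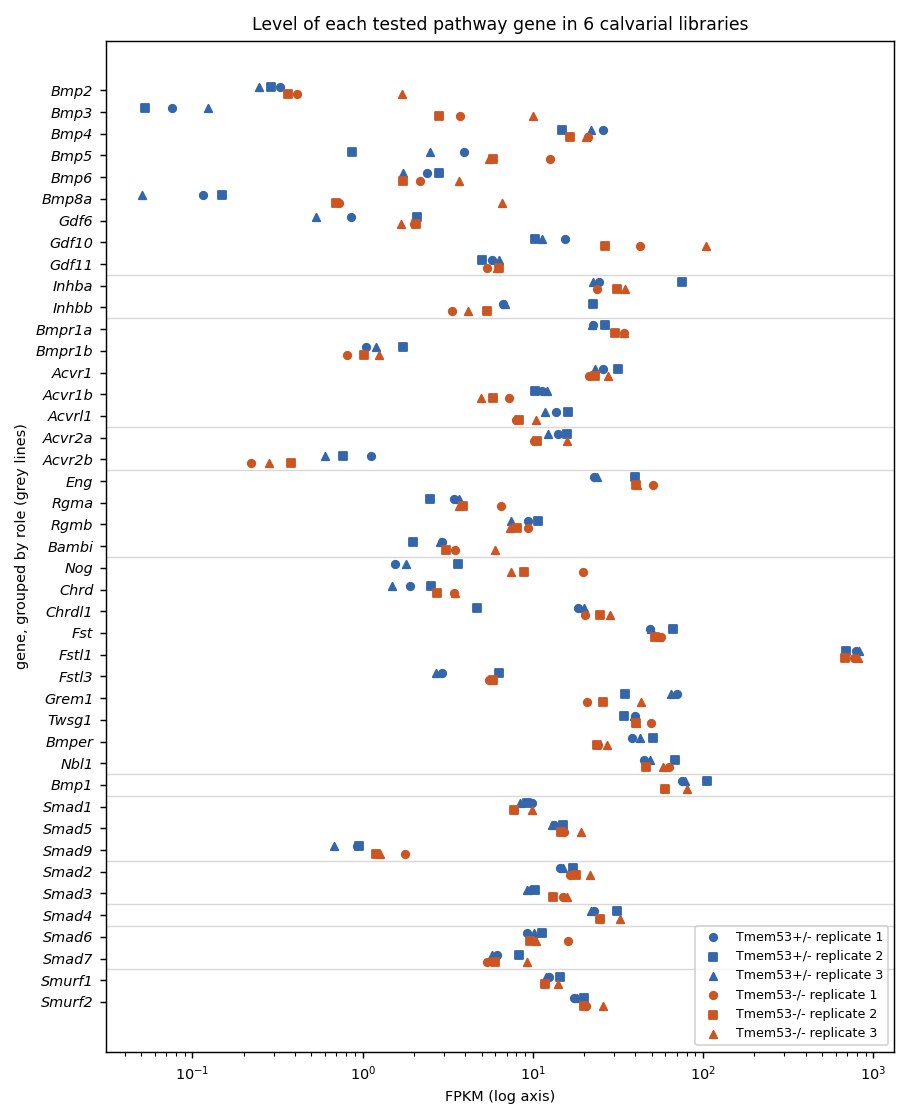
FPKM of the 43 tested genes in each of the 6 libraries, on a logarithmic axis and grouped by role. Each point is 1 pup, coloured by genotype, and the secreted *Fstl1* lies above all others at 679 to 818 FPKM.

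Promoter sequences were at hand for 31 of the 47 genes and are shown for the 4 of the 6 called genes that had one, as the stretches from which the differing transcripts start. *Bmp3* and *Nog* had no entry. They are RefSeq promoters of build GRCm38.p6, a later build than that of the expression table, and run from 250 bases before to 50 after the start of transcription. Capitals mark the GC-rich motif GGCGCC, which SMAD1 and SMAD5 are known to bind and which reads the same on both strands. The plus-strand windows are chr15:101173822-101174121 for *Acvr1b* and chr9:23222826-23223125 for *Bmper*, and the minus-strand windows are chr14:34502497-34502796 for *Bmpr1a* and chr9:63757945-63758244 for *Smad3*.
Acvr1b: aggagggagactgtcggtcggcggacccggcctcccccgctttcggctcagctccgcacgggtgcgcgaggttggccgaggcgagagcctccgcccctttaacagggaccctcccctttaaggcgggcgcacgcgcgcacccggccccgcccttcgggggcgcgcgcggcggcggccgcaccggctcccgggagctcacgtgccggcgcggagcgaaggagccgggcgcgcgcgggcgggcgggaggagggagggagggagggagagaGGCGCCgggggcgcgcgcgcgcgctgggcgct
Bmper: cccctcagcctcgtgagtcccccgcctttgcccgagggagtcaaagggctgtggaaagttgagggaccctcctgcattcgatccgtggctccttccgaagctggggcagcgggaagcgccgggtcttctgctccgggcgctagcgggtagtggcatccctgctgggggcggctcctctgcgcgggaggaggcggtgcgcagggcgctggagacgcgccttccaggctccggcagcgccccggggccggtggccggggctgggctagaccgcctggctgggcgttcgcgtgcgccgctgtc
Bmpr1a: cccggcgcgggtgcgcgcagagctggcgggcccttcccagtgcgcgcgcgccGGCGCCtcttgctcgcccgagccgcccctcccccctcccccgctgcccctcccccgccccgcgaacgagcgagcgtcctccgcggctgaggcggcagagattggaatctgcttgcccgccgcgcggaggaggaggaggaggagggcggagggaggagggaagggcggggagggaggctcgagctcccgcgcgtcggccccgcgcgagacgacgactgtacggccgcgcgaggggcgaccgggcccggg
Smad3: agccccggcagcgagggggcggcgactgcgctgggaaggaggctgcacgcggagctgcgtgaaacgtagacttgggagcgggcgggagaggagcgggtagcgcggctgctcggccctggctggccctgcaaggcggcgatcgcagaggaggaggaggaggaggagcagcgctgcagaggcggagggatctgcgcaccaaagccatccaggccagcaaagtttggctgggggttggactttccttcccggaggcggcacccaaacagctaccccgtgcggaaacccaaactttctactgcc

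*Acvr1b*, which fell, and *Bmpr1a*, which rose, each held 1 GGCGCC, and *Bmper* and *Smad3* held none. Over the 37 windows of the 31 genes, 12 (32.4%) held GGCGCC, beside 3898 of 32851 promoters of the same length (11.9%). The windows of the pathway genes were also richer in G and C, with a median of 67.7% beside 52.7%. CAGAC or its reverse complement GTCTG, the general SMAD-binding element, was in 19 of the 37 (51.4%) and in 49.6% of all promoters, and none of the 4 windows shown held it. A match to these letters is a description of the window and no evidence of binding.

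Among the BMP and GDF ligands, 9 of 11 were tested, 1 rose and none fell, and the median log2 fold change of the 9 was 0.65. *Bmp3* encodes a BMP best known for lowering bone density and opposing the osteogenic BMPs. It was at 0.0763, 0.0528 and 0.123 FPKM in heterozygous replicates 1 to 3 and at 3.73, 2.82 and 9.98 FPKM in mutant replicates 1 to 3. The control libraries thus lay near the bottom of the table and each mutant far above them. The means were 0.0842 ± 0.036 and 5.51 ± 3.90 FPKM (SD, n = 3 each), a ratio of 65.5, and the log2 fold change was 3.18 (SE 0.418, 95% CI 2.17 to 4.19, limma adjusted p = 0.0183). Since the pseudocount of 0.5 FPKM is above all 3 control values, the log2 fold change understates that ratio and ran from 2.43 with a pseudocount of 1 to 4.73 with 0.1. The call was lost without heterozygous replicate 1 (limma adjusted p = 0.0896), heterozygous replicate 3 (0.0894) or mutant replicate 1 (0.0658). Over the whole table, calls fell from 956 entries to 72, 14 and 95 without these libraries, and to 134 without mutant replicate 2. With sex as a covariate, which leaves heterozygous replicate 2 as the only control, the log2 fold change was 3.26. *Bmp3* lies on chromosome 5 from 99283451 to 99314020 (NCBI build37.2, the coordinates of the deposited table).

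*Gdf10* encodes the ligand closest to BMP3 in sequence. It lies on chromosome 14 from 34736772 to 34748471, and was at 15.4, 10.3 and 11.3 FPKM in heterozygous and at 42.8, 26.5 and 104 FPKM in mutant replicates. The genotypes did not overlap, and mutant replicate 3 had more than the other mutants together. Its log2 fold change was 1.97 (SE 0.477, 95% CI 0.83 to 3.12) and missed the threshold (limma adjusted p = 0.0584). Without mutant replicate 3 the log2 fold change was 1.44 and passed it (limma adjusted p = 0.0430). It did not pass without any other single library (up to 0.167).

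*Bmp5*, a ligand whose loss gives the short-ear skeletal phenotype in mice, was at 3.92, 0.867 and 2.5 FPKM in heterozygous and at 12.6, 5.80 and 5.50 FPKM in mutant replicates. All mutants lay above all controls, of which heterozygous replicate 2 was lowest. The log2 fold change of 1.59 (95% CI 0.40 to 2.78) did not pass the test (limma adjusted p = 0.0995). *Bmp8a* was at 0.116, 0.149 and 0.0505 FPKM in heterozygous and at 0.726, 0.70 and 6.56 FPKM in mutant replicates, with a log2 fold change of 1.85 (95% CI 0.20 to 3.51, limma adjusted p = 0.143). Without mutant replicate 3 it was 1.01 and passed the threshold (limma adjusted p = 0.0446), but it did not without any other single library (up to 0.295). Its neighbour *Bmp8b* is nearly identical, so how the reads were shared between them is uncertain. *Bmp2*, an osteogenic ligand, was at 0.326, 0.288 and 0.245 FPKM in controls and at 0.413, 0.366 and 1.71 FPKM in mutants. These values did not overlap either, and mutant replicate 3 was far above the other mutants (log2 fold change 0.62, 95% CI -0.29 to 1.52, limma adjusted p = 0.332).

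*Bmp4*, the ligand with the highest control level, was at 26.0, 14.9 and 21.8 FPKM in heterozygous and 21.1, 16.6 and 20.4 FPKM in mutant replicates, with overlapping genotypes and a log2 fold change of -0.08 (95% CI -0.59 to 0.44). *Bmp6*, *Gdf6* and *Gdf11* also overlapped, with log2 fold changes of 0.08, 0.65 and 0.06. For *Gdf6* the overlap came from heterozygous replicate 2, and the gene was called higher without that library but not without any other single library. Of the untested ligands, *Bmp7* was at 0.0214 FPKM or less in controls and at 0.113 to 0.377 FPKM in mutants, and *Gdf5*, a joint-forming ligand, was at 0.403 FPKM or less in every library.

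Shares of the ligand transcripts describe the same values in another way. Summed over the 11 ligand entries, the level was 54.8, 36.6 and 44.7 FPKM in heterozygous and 91.4, 63.1 and 161.0 FPKM in mutant replicates. *Bmp4* made up 47.4%, 40.7% and 48.8% of that sum in controls and 23.1%, 26.3% and 12.7% in mutants. The share of *Gdf10* was 28.0%, 28.1% and 25.3% in controls and 46.9%, 41.9% and 64.8% in mutants, so that it was the largest share in each mutant and *Bmp4* the largest in each control. *Bmp3* went from at most 0.276% in controls to 4.09%, 4.47% and 6.21% in mutants. FPKM are scaled to exon length, which permits such sums, but these shares were formed after the values were seen and were not tested.

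Activin A and activin B are dimers of the subunits encoded by *Inhba* and *Inhbb*, and neither gene was called. *Inhba* was at 24.3, 75.2 and 22.7 FPKM in heterozygous and at 23.7, 31.3 and 34.6 FPKM in mutant replicates. Heterozygous replicate 2 was far above every other library, and the mutants reached from among the remaining controls to somewhat above them. The log2 fold change was -0.23 (95% CI -1.34 to 0.88, limma adjusted p = 0.786), and without that library it was 0.32. *Inhbb* was at 6.71, 22.4 and 6.89 FPKM in controls and at 3.33, 5.39 and 4.17 FPKM in mutants. Its genotypes did not overlap and every mutant was lower, with a log2 fold change of -1.18 (95% CI -2.30 to -0.06, limma adjusted p = 0.162) that was -0.63 without heterozygous replicate 2.

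**Figure D3:**
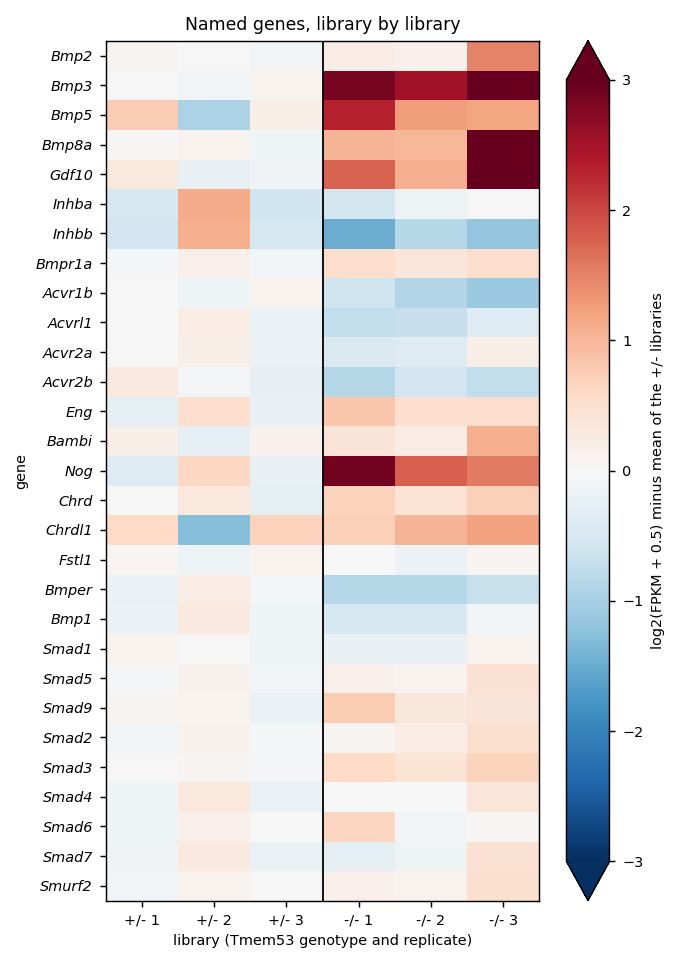
Log2 difference of each library from the mean of the heterozygous libraries for the 29 genes named with values in every library. Columns are the 6 pups and rows the genes in order of role; red is above and blue below the heterozygous mean, and *Inhba* in heterozygous replicate 2 and *Gdf10* in mutant replicate 3 show single libraries that differ from the rest of their genotype.

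All 5 type I receptors were tested, of which 1 rose and 1 fell. *Bmpr1a* encodes the type I receptor ALK3, through which BMP ligands such as BMP2 and BMP4 act on SMAD1, SMAD5 and SMAD9. It lies on chromosome 14 from 35224016 to 35315769, and was at 22.6, 26.4 and 22.3 FPKM in heterozygous and at 34.3, 30.4 and 34.5 FPKM in mutant replicates. The genotypes did not overlap and their spreads were small, 23.8 ± 2.28 against 33.1 ± 2.30 FPKM (SD, n = 3 each). The log2 fold change was 0.47 (SE 0.104, 95% CI 0.22 to 0.72), with a limma adjusted p of 0.0495, just inside the threshold. That call held without heterozygous replicate 2 (0.019) and was lost when any other library was left out, with limma adjusted p-values of 0.174 and 0.16 for heterozygous replicates 1 and 3 and of 0.154, 0.0901 and 0.101 for mutant replicates 1, 2 and 3. Against heterozygous replicate 2 alone, in the fit with sex as a covariate, the log2 fold change was 0.32.

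*Acvr1b* encodes ALK4, the type I receptor of the activins, which signals to SMAD2 and SMAD3. It lies on chromosome 15 from 101004330 to 101065309, and was at 11.4, 10.3 and 12.1 FPKM in heterozygous and at 7.26, 5.85 and 4.95 FPKM in mutant replicates. Every mutant was below every control, and the means of 11.3 ± 0.913 and 6.02 ± 1.17 FPKM (SD, n = 3 each) gave a ratio of 0.534. It fell by 0.86 on the log2 scale (SE 0.150, 95% CI -1.23 to -0.50, limma adjusted p = 0.0291). Dropping heterozygous replicate 1 or 3 gave a limma adjusted p of 0.122 or 0.119, and dropping mutant replicate 1 or 2 gave 0.0552 or 0.085. The log2 fold change stayed between -1.0 and -0.74 when any 1 library was left out, and was -0.74 with sex as a covariate.

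The other type I receptors were not called. *Acvrl1* encodes ALK1, known from endothelial cells, where it binds BMP9 and BMP10 with the co-receptor endoglin. It was at 13.6, 16.1 and 11.8 FPKM in controls and at 8.0, 8.32 and 10.4 FPKM in mutants, so the genotypes did not overlap (log2 fold change -0.61, 95% CI -0.97 to -0.24, limma adjusted p = 0.0628). *Acvr1*, which encodes ALK2, was the most abundant type I receptor in controls, with overlapping values of 25.9, 31.6 and 23.1 FPKM in controls and 21.5, 23.2 and 27.7 FPKM in mutants (log2 fold change -0.15, 95% CI -0.51 to 0.21). *Bmpr1b*, which encodes ALK6 and is known from cartilage condensations, was at 0.813 to 1.72 FPKM over all libraries (log2 fold change -0.25).

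Of the type II receptors, which bind ligand and activate the type I chain, neither tested gene was called. *Acvr2a* was at 14.1, 15.8 and 12.3 FPKM in heterozygous and at 10.2, 10.6 and 15.9 FPKM in mutant replicates, with overlap through mutant replicate 3 (log2 fold change -0.21, 95% CI -0.67 to 0.24). *Acvr2b* was at 1.11, 0.766 and 0.601 FPKM in controls and at 0.221, 0.377 and 0.282 FPKM in mutants. All mutants were lower at these low levels, and the log2 fold change of -0.73 (95% CI -1.22 to -0.24) did not pass the test (limma adjusted p = 0.0795). The merged entry that holds *Bmpr2*, the type II receptor of the BMPs, was at 11.8, 27.7 and 9.23 FPKM in controls and at 13.9, 14 and 14.9 FPKM in mutants, and its reads cannot be assigned to *Bmpr2* alone.

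None of the 4 co-receptors and pseudoreceptors was called. *Eng* encodes endoglin, a co-receptor of ALK1, and was at 23.0, 39.9 and 23.9 FPKM in heterozygous and at 50.4, 40.2 and 40.8 FPKM in mutant replicates. Heterozygous replicate 2 nearly reached the lowest mutant, and the log2 fold change was 0.63 (95% CI 0.08 to 1.18, limma adjusted p = 0.136). It was 0.88 and called without heterozygous replicate 2 (limma adjusted p = 0.0158), but not called without any other single library (up to 0.331). Without both libraries that stand apart it was 0.93 and called (0.00827), and with sex as a covariate it was 0.12. Beside *Acvrl1* and *Eng*, 8 endothelial marker genes summed to 1.14 to 2.0 FPKM in each library, with 7 of the 8 below a mean of 0.5 FPKM. Of these, 2 (*Cldn5* and *Tie1*) were listed at 0 in every library and *Emcn* in some, and a listed 0 may be a failed estimate. *Bambi*, a decoy receptor without a kinase, was at 2.93, 1.98 and 2.85 FPKM in controls and at 3.48, 3.08 and 5.99 FPKM in mutants (log2 fold change 0.57, 95% CI -0.06 to 1.19, limma adjusted p = 0.211). The repulsive guidance molecule genes *Rgma* and *Rgmb*, whose products bind BMPs, had log2 fold changes of 0.46 and -0.14.

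The secreted antagonists and modulators were the largest group, with 10 of 11 tested, 1 risen, 1 fallen and a median log2 fold change of 0.12. *Nog*, on chromosome 11 from 89146141 to 89164577, encodes noggin, which binds and blocks BMP2, BMP4 and BMP7. It was at 1.56, 3.61 and 1.80 FPKM in heterozygous and at 19.6, 8.87 and 7.43 FPKM in mutant replicates. Each mutant was well above the highest control, and mutant replicate 1 was highest. The means were 2.32 ± 1.12 and 12.0 ± 6.66 FPKM (SD, n = 3 each), a ratio of 5.16, and the log2 fold change was 2.09 (SE 0.417, 95% CI 1.09 to 3.09, limma adjusted p = 0.0397). Dropping heterozygous replicate 1 or 3 raised the limma adjusted p to 0.143 or 0.135, and dropping mutant replicate 1 or 2 raised it to 0.0939 or 0.085. With sex as a covariate the log2 fold change was 1.48.

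*Bmper* encodes a secreted protein that binds BMPs and is known both to block and to promote their action. It lies on chromosome 9 from 23027519 to 23289660, and was at 38.4, 51.1 and 42.8 FPKM in heterozygous and at 24.0, 23.9 and 27.2 FPKM in mutant replicates. The mutants lay close together and all below the controls, at 25.0 ± 1.90 against 44.1 ± 6.43 FPKM (SD, n = 3 each). It fell by 0.80 on the log2 scale (SE 0.127, 95% CI -1.10 to -0.49, limma adjusted p = 0.0258). The call was lost without heterozygous replicates 1 (limma adjusted p = 0.0738) or 3 (0.107) or mutant replicates 1 (0.0997) or 2 (0.0804). With sex as a covariate the log2 fold change was -1.02.

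*Chrd* encodes chordin, another BMP-binding antagonist, and was at 1.90, 2.53 and 1.48 FPKM in controls and at 3.44, 2.72 and 3.47 FPKM in mutants. The genotypes did not overlap, and the log2 fold change of 0.60 (95% CI 0.15 to 1.06) was not called (limma adjusted p = 0.101). Without heterozygous replicate 2 it was 0.76 and called (0.0376), but it was not called without any other single library (up to 0.254). *Chrdl1*, an X-linked chordin-like gene, was at 18.4, 4.69 and 19.9 FPKM in controls and at 20.2, 24.9 and 28.4 FPKM in mutants, so that all mutants were above all controls and heterozygous replicate 2 stood far below (log2 fold change 0.97, 95% CI -0.28 to 2.23, limma adjusted p = 0.273). Without that library the log2 fold change of *Chrdl1* was 0.33. *Grem1* encodes gremlin, an antagonist of BMP2 and BMP4. Its values of 69.8, 34.6 and 64.9 FPKM in controls and 20.8, 25.9 and 43.4 FPKM in mutants overlapped through heterozygous replicate 2, with a log2 fold change of -0.90 (95% CI -1.77 to -0.04, limma adjusted p = 0.163).

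No gene of the follistatin family was called. *Fstl1*, the most abundant of all 43 genes, was at 791, 694 and 818 FPKM in heterozygous and at 765, 679 and 809 FPKM in mutant replicates (log2 fold change -0.03, 95% CI -0.38 to 0.32). *Fst*, the antagonist of activins, had a log2 fold change of 0.00 (95% CI -0.33 to 0.33), and *Fstl3* had one of 0.56 (95% CI -0.14 to 1.25) with overlapping values. The overlap of *Fstl3* came from heterozygous replicate 2. Without that library it was called higher, but not without any other single library. *Twsg1*, a chordin partner, and *Nbl1*, a gremlin relative, had log2 fold changes of 0.19 and 0.06. *Chrdl2* was at 0.152 FPKM or less in every library. *Bmp1*, which despite its name encodes a protease that cleaves chordin and procollagens, was at 75.4, 105 and 78.0 FPKM in controls and at 58.8, 59.9 and 80.7 FPKM in mutants, which overlapped (log2 fold change -0.37, 95% CI -0.81 to 0.07, limma adjusted p = 0.238).

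**Figure D4:**
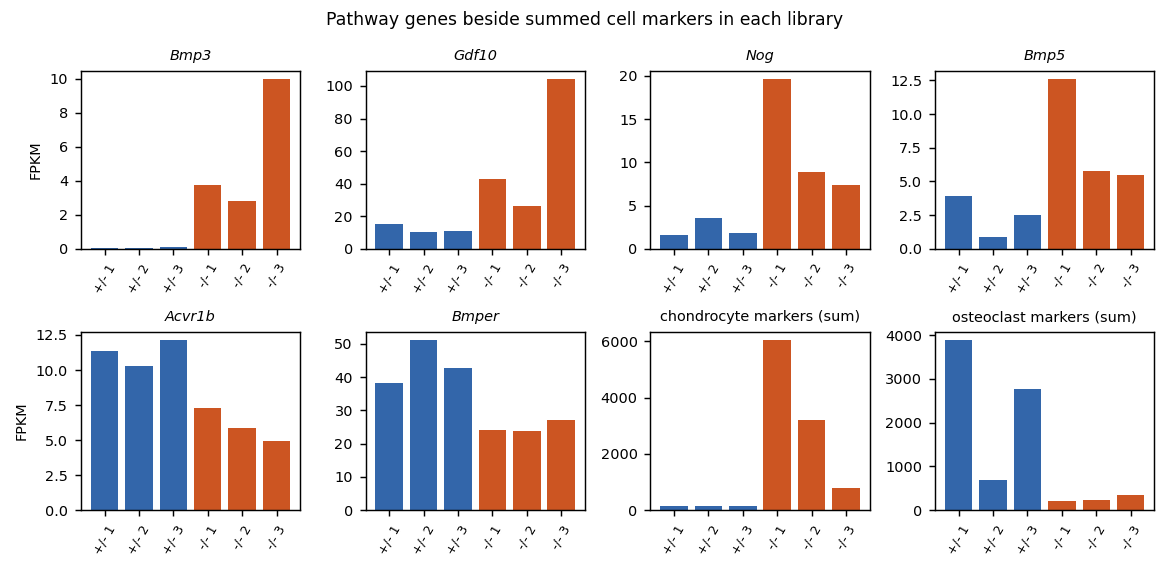
FPKM in each library of *Bmp3*, *Gdf10*, *Nog*, *Bmp5*, *Acvr1b* and *Bmper*, and the summed FPKM of the cartilage and osteoclast marker lists. Bars start at 0 and each bar is 1 pup. Among the mutants, *Nog*, *Bmp5*, *Acvr1b* and the cartilage markers were highest in replicate 1 and lowest in replicate 3, whereas *Bmp3* and *Gdf10* were highest in replicate 3.

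Across the mutant libraries *Nog*, *Bmp3*, *Gdf10* and *Acvr1b* did not share 1 order, and neither did the cell markers. The cartilage marker sum was 6030, 3190 and 800 FPKM in mutant replicates 1 to 3, and *Nog* followed the same order at 19.6, 8.87 and 7.43 FPKM. So did *Bmp5* at 12.6, 5.80 and 5.50 FPKM, and *Acvr1b*, which fell, at 7.26, 5.85 and 4.95 FPKM. A sum of meninges markers, at 751, 444 and 293 FPKM, ran in that order too, and none of these orders was tested. *Bmp3* and *Gdf10* instead were highest in mutant replicate 3, where the cartilage sum was lowest of the mutants. *Acvr1b* was lowest in that library. Over the 43 genes mutant replicate 3 held the highest mutant value in 26 (60.5%), beside 46.3% of all entries tested, and heterozygous replicate 2 held the highest control value in 28 (65.1%), beside 49.8%. Each of the 3 controls lay outside the range of the mutants for 32 of the 43 genes. The share over all entries was not counted, so nothing about the list or the controls is read from it. Since heterozygous replicate 2, the male control, was also the control that stood apart, its sex and its other differences cannot be told apart.

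With sex as a covariate, the limma fit sets the male mutants against heterozygous replicate 2 alone, the only male control. It cannot separate genotype from what sets that library apart, so no calls are read from it. Its log2 fold changes were 3.26 for *Bmp3*, 2.53 for *Bmp5* and 2.25 for *Chrdl1*. They were -1.02 for *Bmper*, -1.33 for *Inhba*, -2.28 for *Inhbb* and -0.83 for *Acvrl1*.

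Among the SMADs, the genes of the BMP branch were not called. *Smad1* was at 9.85, 9.25 and 8.38 FPKM in heterozygous and at 7.72, 7.73 and 9.94 FPKM in mutant replicates, with overlap and a log2 fold change of -0.11 (95% CI -0.43 to 0.20, limma adjusted p = 0.608). *Smad5* was at 13.3, 14.9 and 13.0 FPKM in controls and at 15.2, 14.7 and 19.1 FPKM in mutants, also with overlap (0.24, 95% CI -0.07 to 0.54, limma adjusted p = 0.270). *Smad9*, the least abundant of the branch, was at 0.926, 0.949 and 0.679 FPKM in controls and at 1.78, 1.19 and 1.27 FPKM in mutants. Here every mutant was above every control, but the log2 fold change of 0.50 (95% CI 0.06 to 0.93) did not pass the test (limma adjusted p = 0.136).

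In the activin branch, *Smad3* rose and *Smad2* was not called. *Smad3* lies on chromosome 9 from 63494573 to 63605977, and was at 9.70, 10.3 and 9.25 FPKM in heterozygous and at 15.0, 13.1 and 15.8 FPKM in mutant replicates. The control values spread by 0.518 FPKM (SD, n = 3), and every mutant was clearly above them, for a ratio of the means of 1.5. The log2 fold change was 0.56 (SE 0.102, 95% CI 0.31 to 0.81, limma adjusted p = 0.0327). It was called without heterozygous replicate 2 (0.0251) and lost without any other library. The limma adjusted p-values were 0.13 and 0.128 for heterozygous replicates 1 and 3 and 0.12, 0.0643 and 0.0612 for mutant replicates 1 to 3. With sex as a covariate the log2 fold change was 0.49. *Smad2*, which shares its activators, was at 14.5, 17.1 and 15.0 FPKM in controls and at 16.5, 18.0 and 21.7 FPKM in mutants, which overlapped (log2 fold change 0.26, 95% CI -0.05 to 0.57, limma adjusted p = 0.242).

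*Smad4*, the partner of both branches, was at 22.9, 31.3 and 21.8 FPKM in heterozygous and at 24.8, 24.7 and 32.5 FPKM in mutant replicates, with overlapping genotypes (log2 fold change 0.11, 95% CI -0.32 to 0.54). *Smad6*, an inhibitory SMAD that BMP signaling is known to induce, was at 9.29, 11.4 and 10.1 FPKM in controls and at 16.1, 9.64 and 10.5 FPKM in mutants. Only mutant replicate 1 was above the controls (log2 fold change 0.20, 95% CI -0.29 to 0.68). *Smad7*, which restrains both branches, was at 6.18, 8.25 and 5.79 FPKM in controls and at 5.39, 6.02 and 9.27 FPKM in mutants, again with overlap (0.01, 95% CI -0.53 to 0.55). *Smurf1* and *Smurf2*, ubiquitin ligases that mark SMADs and receptors for degradation, had log2 fold changes of -0.05 (95% CI -0.33 to 0.23) and 0.24 (95% CI -0.06 to 0.54), and *Smurf2*, the more abundant of them, was at 17.5, 20.0 and 18.3 FPKM in controls and at 20.6, 19.9 and 25.9 FPKM in mutants.

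The remaining genes of the pathway were counted from lists written from textbook knowledge. The background was 3.44% called higher and 3.63% called lower, and nothing is read from the counts about these lists. Of 5 tested entries for other ligands 1 rose, *Gdf15*, a stress-induced ligand (log2 fold change 0.59, limma adjusted p = 0.033). Of 7 other receptors and co-receptors 1 fell, *Tgfbr3*, which encodes betaglycan and also binds inhibin (-0.84, limma adjusted p = 0.028). Of 21 other extracellular regulators 2 rose, the microfibril gene *Fbn2* (2.13, limma adjusted p = 0.008) and the proprotein convertase gene *Pcsk6* (1.65, limma adjusted p = 0.037), and 1 fell, the convertase gene *Furin* (-0.47, limma adjusted p = 0.029). Convertases of this kind cleave BMP and activin precursors. Of 30 other intracellular regulators 2 rose, *Tob1*, a repressor of receptor SMADs in osteoblasts (0.92, limma adjusted p = 0.027), and the phosphatase gene *Ctdspl* (0.86, limma adjusted p = 0.025).

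Of 27 tested entries for known BMP-SMAD target genes 4 rose, *Alpl*, *Runx2*, *Sp7* and *Dlx5*, all genes of the osteoblast lineage. Of the same list 1 fell, *Junb* (log2 fold change -0.98, limma adjusted p = 0.043). The backgrounds were 3.44% higher and 3.63% lower. *Alpl*, *Runx2* and *Sp7* were also counted among the called osteoblast markers, so they are no separate result. A second *Runx2* entry overlapped between genotypes and was not called (0.41, limma adjusted p = 0.265). The median log2 fold change of the list was 0.39. *Id1*, a direct target, was at 23.2, 29.3 and 21.2 FPKM in heterozygous and at 63.1, 41.8 and 36.0 FPKM in mutant replicates without being called (0.89, limma adjusted p = 0.066), while *Id2* and *Id3* had log2 fold changes of -0.25 and -0.09. *Dlx3* was higher in every mutant than in any control but was not called (1.38, limma adjusted p = 0.171). The study reported *Id1*, *Dlx3* and *Dlx5* as significantly upregulated by its own test. It named these targets from the same libraries, so their direction is not independent evidence.

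**Figure D5:**
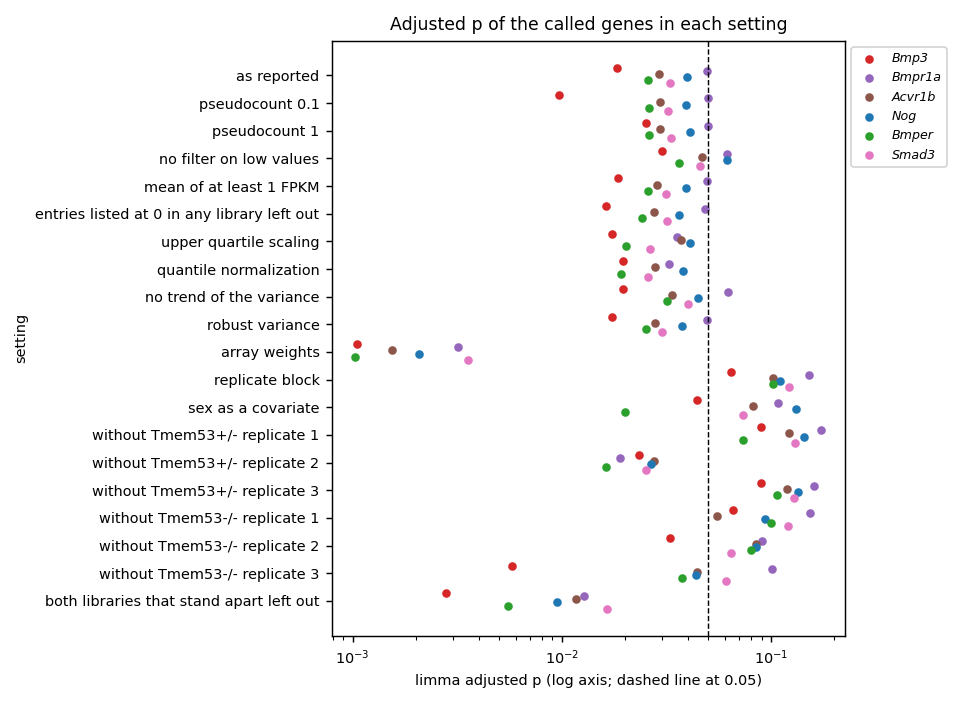
Limma adjusted p of the 6 called genes in the fit reported and under 19 alternative settings, on a logarithmic axis with a dashed line at 0.05. Each point is 1 gene in 1 setting; points right of the line, at up to 0.174 for *Bmpr1a*, are settings under which a call was lost.

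The exact two-sided permutation test gave p = 0.1 for each of the 6 called genes, the smallest value that 3 pups against 3 allow. Over the 19 alternative settings *Bmp3* was called in 15, *Bmper* in 14, *Acvr1b* in 13, *Nog* and *Smad3* in 12 each and *Bmpr1a* in 10. The setting with sex as a covariate, which rests on heterozygous replicate 2 as the only control, is counted among them.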

How the data were processed

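Calvaria of 3 *Tmem53*+/- and 3 *Tmem53*-/- pups gave 1 directional, ribosomal RNA-depleted, paired-end library each. The authors trimmed reads with the FASTX-toolkit, aligned them with TopHat2 2.1.1 to NCBI build37.2 and deposited FPKM per gene from Cufflinks and Cuffdiff 2.1.1. For the annotation, the library-type option and any scaling between libraries, the settings are not given in the sources read. Of 32350 deposited entries 7233 had no symbol, 437 carried merged names and 5983 were at 0 throughout. FPKM hold no read counts. Steps between low values put the depths at 0.868 to 1.19 relative to heterozygous replicate 1, and library sums ran from 569846 to 611928 FPKM.

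FPKM were used as deposited. With limma 3.58.1 (R 4.3.3, eBayes with trend), log2(FPKM + 0.5) of entries with a symbol and a mean of at least 0.5 FPKM was tested between genotypes, adjusted by Benjamini-Hochberg over all 13535 entries (13430 symbols) and called under 0.05. The fit was tested on simulated data with independent noise for each gene and no library that stood apart, so that test does not cover such libraries. Fold changes on this scale understate those of low genes, and p-values measure the spread between these pups only. The genes and all lists were chosen with earlier results of these data known. Values in every library are given for called genes, tested genes with groups that do not overlap and a log2 fold change of at least 0.5 in size, the most abundant gene of each role, *Smad1*, *Smad5*, *Smad9*, *Smad4*, *Smad6* and *Smad7*, and any gene at 0 in 1 library beside at least 5 FPKM in another; of the other pathway genes, called ones were named, up to 4 per list and direction. Values of *Bmp4*, *Bmp7*, *Gdf5*, *Acvr1*, *Grem1*, *Id1*, *Id2* and *Id3* were added after their values were seen. The 19 alternatives varied the pseudocount, filter, scaling, variance model, replicate block, sex and libraries. Promoters are those of RefSeq, GRCm38.p6.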

Additional observations from a re-analysis of the deposited data

How the results depend on the processing

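All 6 called genes kept their direction under all 19 alternatives. The limma adjusted p ranged from 0.00105 to 0.0896 for *Bmp3*, 0.00103 to 0.107 for *Bmper*, 0.00154 to 0.122 for *Acvr1b*, 0.00208 to 0.143 for *Nog*, 0.00356 to 0.13 for *Smad3* and 0.00318 to 0.174 for *Bmpr1a*. Against 4 genes called higher, 2 lower and 956 entries in all, limma called 2 higher and 621 entries with no filter on low values, and 13 higher, 6 lower and 4744 entries with array weights. Without both libraries that stand apart it called 10 higher, 5 lower and 3675 entries. Leaving out 1 library at a time gave 0 to 8 higher, 0 to 2 lower and 14 to 2216 entries, and the median of the 43 genes ran from 0.031 to 0.27. The extremes for all entries were without heterozygous replicates 3 and 2. With the replicate number as a block 0 and 0 genes and 30 entries were called. Deviations of same-numbered libraries from their genotype means had correlations of 0.0469, -0.2304 and -0.1381. With 3 libraries a genotype, of which 1 in each stood apart, these values cannot show whether the numbers pair the pups.

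Of genes not called, *Inhba* (-0.53 to 0.32 over single libraries left out) turned to 0.28 with array weights, 0.32 without heterozygous replicate 2 and 0.21 without both libraries that stand apart. *Fstl1* (-0.10 to 0.039) turned to 0.11 with sex as a covariate, 0.016 without heterozygous replicate 3 and 0.039 without mutant replicate 2. *Smad4* (-0.018 to 0.27) turned to -0.21 with sex and -0.018 without mutant replicate 3, and *Smad6* (-0.023 to 0.33) to -0.023 without mutant replicate 1. *Smad7* (-0.21 to 0.16) turned to -0.28 with sex, -0.04 and -0.08 without heterozygous replicates 1 and 3, -0.21 without mutant replicate 3 and -0.064 without both libraries. The cause was not tested. With 3 pups a genotype, unequal sexes and no read counts, values under about 1 FPKM rest on the spread between pups alone.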

Other observations

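Ratios of FPKM within a library set pairs of pathway genes against each other. They were chosen after the values were seen and were not tested. *Bmp4* over its antagonist *Nog* was 16.7, 4.13 and 12.2 in heterozygous and 1.08, 1.87 and 2.75 in mutant replicates 1 to 3, so that the ligand exceeded noggin in every library but by least in the mutants. The antagonists drew closer to each other, with *Grem1* over *Nog* at 44.8, 9.6 and 36.1 in controls and at 1.06, 2.92 and 5.84 in mutants. *Bmpr1a* over *Acvr1b*, a BMP over an activin type I receptor, was 1.99, 2.56 and 1.84 in controls and 4.72, 5.2 and 6.98 in mutants. *Smad3* over *Smad1* was 0.985, 1.11 and 1.1 in controls and 1.95, 1.7 and 1.59 in mutants, so that the genotypes did not overlap. *Inhba* over *Fst*, an activin subunit over its antagonist, overlapped between the genotypes, at 0.496, 1.13 and 0.458 in controls and 0.421, 0.602 and 0.624 in mutants.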
